A study of Heterocephalus glaber and Mus musculus with 9 samples.

Results

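The genes described are the members of the tumour necrosis factor (TNF) superfamily and of the NF-kB pathway that were measured in the spleen of naked mole-rats (NM-Rs) and mice. They were chosen by symbol, as all genes whose names start with Tnfsf, Tnfrsf, Tnfaip, Traf and a digit, Nfkb, Ikbk or Birc, with Map3k7, Map3k8 and Map3k14, and with Tnf, Ltb, Ltbr, Rel, Rela, Relb, Malt1, Bcl10, Cyld, Ripk1, Tradd and Fadd. In all, 63 of the 12946 genes of the table met this rule, and Ltb, Cyld and Map3k7 are not listed under these symbols. The spleens came from 3 male mice of the C57Bl/6N strain, all wild type and 2 months old, and from 6 NM-Rs, 1 library per animal. The labels divide the NM-Rs by spleen size into 3 with small spleens (ssNM-R 2, 3 and 6, males of 30, 26 and 23 months) and 3 with large spleens (lsNM-R 1, 4 and 5, of 24, 29 and 23 months, of which lsNM-R 4 was female). The labels name no transgene and no agent. Species, age, reference genome and gene annotation all differ together between NM-Rs and mice and cannot be told apart in any comparison of the species.

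As background, TNF superfamily ligands are trimeric proteins, mostly held on the cell surface, that bind receptors with cysteine-rich extracellular domains. The receptors carry no enzyme of their own and recruit TRAF or death domain adaptors, which lead either to caspases or to IkB kinases. In the canonical pathway IkB proteins are degraded and release dimers of Rela, Rel and Nfkb1, while in the alternative pathway the kinase NIK (Map3k14) drives the processing of Nfkb2 and the nuclear entry of Relb. In the spleen this family is best known for the survival of B cells through BAFF, for the layout of follicles through lymphotoxin, and for the costimulation of T cells.

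Values are normalized counts. Each is the number of reads of a gene after scaling for the depth of its library, without regard to gene length, so that they compare a gene between spleens but not genes with each other. The reads recovered for the 12946 genes of the table summed to between 7815326 and 18387599 per library. In these libraries 3 reads corresponded to between 1.88 and 4.5 normalized counts. In mm9, 8 members (Nfkb2, Nfkbib, Nfkbil1, Ripk1, Traf3, Traf3ip3, Traf7 and Tnfrsf12a) overlap a coding gene on the opposite strand, whose reads could not be told apart if the counting did not use strand. Marker lists of other cell types moved with the species, which touches every comparison of the species. All 11 B cell markers in the table, of 12 listed, were lower in NM-Rs, with summed levels of 59364 to 60511 normalized counts in mice and 3207 to 7812 in NM-Rs. All 13 T cell markers were lower as well (17124 to 18581 against 4492 to 9395). By contrast, all 10 erythroid markers in the table, of 12 listed, were higher, with sums of 25116 to 72011 in mice and 153329 to 232679 in NM-Rs, as were 6 of 7 granulocyte markers (7729 to 9981 against 24829 to 43204). All 6 dendritic cell markers in the table, of 7 listed, were lower (5351 to 6880 against 771 to 1206). No marker of these 5 lists was at 0 in every spleen of either species. In bulk tissue, fewer cells of a type and less RNA per cell cannot be told apart.

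The sequences printed next are the 250 bases before the most often annotated transcript start (mm9) of the NF-kB subunit and IkB genes in which a match to the kB consensus was found, since these genes encode the factor and the inhibitors that bind it. They run 5′ to 3′ on the strand of the gene, and capitals mark matches of 10 letters, on either strand, to the kB consensus, with overlapping matches joined. The windows are chr19:46378977-46379226 (plus strand) for Nfkb2, chr7:20214788-20215037 (minus) for Relb, chr11:23670971-23671220 (minus) for Rel, chr12:56593635-56593884 (minus) for Nfkbia and chr17:45692415-45692664 (plus) for Nfkbie.
Nfkb2: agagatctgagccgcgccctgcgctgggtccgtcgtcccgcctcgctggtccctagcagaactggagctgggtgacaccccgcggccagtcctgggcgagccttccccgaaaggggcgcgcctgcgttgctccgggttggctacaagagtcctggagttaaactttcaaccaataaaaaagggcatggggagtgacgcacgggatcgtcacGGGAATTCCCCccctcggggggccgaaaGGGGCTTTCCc
Relb: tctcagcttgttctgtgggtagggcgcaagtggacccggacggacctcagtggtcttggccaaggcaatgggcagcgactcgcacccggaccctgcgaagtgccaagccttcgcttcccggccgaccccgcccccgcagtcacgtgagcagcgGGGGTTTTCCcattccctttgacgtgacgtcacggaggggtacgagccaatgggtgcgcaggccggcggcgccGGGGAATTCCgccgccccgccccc
Rel: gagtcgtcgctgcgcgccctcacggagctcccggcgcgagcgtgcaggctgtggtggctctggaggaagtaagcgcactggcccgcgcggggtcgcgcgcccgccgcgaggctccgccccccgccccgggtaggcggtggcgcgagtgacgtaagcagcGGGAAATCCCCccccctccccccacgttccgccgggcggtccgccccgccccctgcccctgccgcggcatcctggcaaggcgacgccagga
Nfkbia: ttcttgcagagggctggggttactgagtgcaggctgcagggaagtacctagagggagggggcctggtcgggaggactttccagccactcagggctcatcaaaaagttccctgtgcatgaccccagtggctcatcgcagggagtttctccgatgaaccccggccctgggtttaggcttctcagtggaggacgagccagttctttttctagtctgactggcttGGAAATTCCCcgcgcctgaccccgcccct
Nfkbie: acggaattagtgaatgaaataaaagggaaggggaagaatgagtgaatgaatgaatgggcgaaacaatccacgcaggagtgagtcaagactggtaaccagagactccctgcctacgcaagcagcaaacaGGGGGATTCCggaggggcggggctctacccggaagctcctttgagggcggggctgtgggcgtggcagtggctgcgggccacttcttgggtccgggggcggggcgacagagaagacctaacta

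The Nfkb2 window held 3 matches, of which 2 overlap by all but 1 base, starting 39, 38 and 11 bases before the transcript. Relb had 2 matches, 97 and 24 bases before its start, and Rel had 2 overlapping matches at 91 and 90 bases. Nfkbia and Nfkbie held 1 match each, at 29 and 122 bases. No match lay in the same window of Rela or Nfkb1. The Nfkb1 window (chr3:135330764-135331013, minus strand) lies inside the annotated gene, which extends to 135354511. The bases before the outermost start of Nfkb1 were therefore not searched. Among the 63 members, 10 windows (15.9%) held at least 1 match, namely 8 of the 43 genes that were lower in NM-Rs (18.6%) and 2 of the 16 that were higher (12.5%), while 7.68% of the windows of 22372 coding genes did. A match describes letters in the mouse genome and is not a site of binding, and the NM-R promoters were not analysed here.

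Most members were lower in NM-R spleens. Compared to mice, 43 of the 63 members were lower and 16 higher in the mean of both NM-R cohorts, and 4 did not pass the threshold (limma on log2 of the normalized count plus 1, adjusted p under 0.05 over all genes). Of all genes of the table, 38.8% were lower and 39.7% higher in this comparison. The median log2 fold change was -1.15 over the members and 0.01 over all genes. In 41 members all 6 NM-R spleens lay below all 3 mice, and in 13 they lay above, as they did in 36.2% and 36.4% of all genes. Among the members that passed the threshold, 16 were at least 4-fold lower and 5 at least 4-fold higher, against 13.9% and 14.4% of all genes. The 4 members that did not pass were Tnf, Tnfrsf21, Ikbke and Nfkbib.

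In ssNM-Rs 16 members were higher and 42 lower than in mice (38.0% and 37.5% of all genes), and in lsNM-Rs 13 were higher and 45 lower (38.1% and 37.0%). Both comparisons share the same 3 mice.

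**Figure D1:**
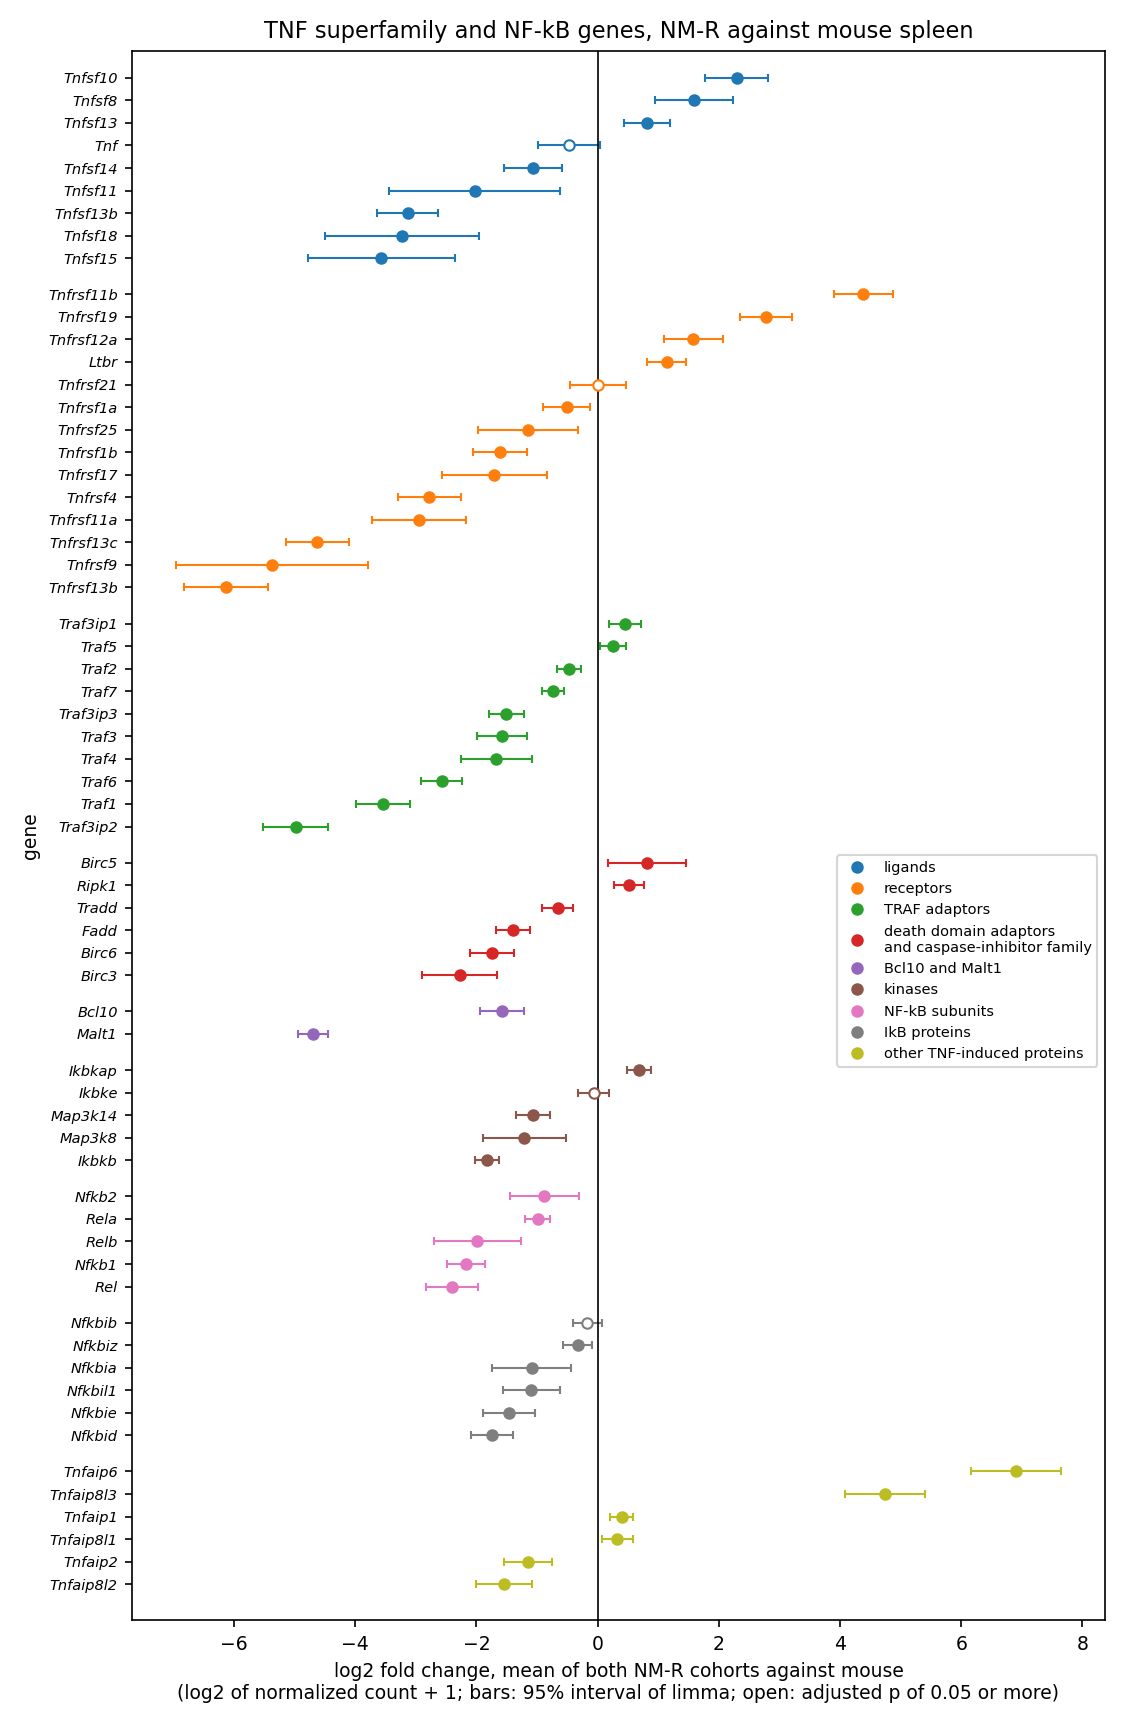
Log2 fold change of each of the 63 members between the mean of both NM-R cohorts and mice (x axis, log2 of the normalized count plus 1), grouped by role, with the 95% interval of limma as bars and open symbols for the 4 members that did not pass the threshold. All 5 NF-kB subunits lie below 0, while Tnfaip6 at 6.90 and Tnfrsf13b at -6.13 are the extremes.

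The member with the lowest log2 fold change was a receptor of B cells. BAFF (Tnfsf13b) and APRIL (Tnfsf13) are the ligands of 3 receptors, TACI (Tnfrsf13b), BAFF receptor (Tnfrsf13c) and BCMA (Tnfrsf17), and support B cells and plasma cells. The Tnfrsf13b gene (chr11:60940257-60962874, mm9, plus strand) had 2114, 2071 and 1978 normalized counts in mice 1, 2 and 3, 19.1, 45.0 and 16.4 in ssNM-R 2, 3 and 6, and 45.2, 33.8 and 23.2 in lsNM-R 1, 4 and 5. The species did not overlap, and the 2 highest NM-R spleens were ssNM-R 3 and lsNM-R 1. The mean was 67.4-fold lower in NM-Rs, with a log2 fold change of -6.13 ± 0.31 (SE, n = 6 and 3; limma adjusted p = 6.68e-08). Tnfrsf13c (chr15:82052174-82054790, minus strand), which carries the survival signal of BAFF in B cells, had 1759, 1885 and 1808 in mice, 49.2, 104 and 53.7 in ssNM-Rs and 103, 69.8 and 75.2 in lsNM-Rs, given here and below in the same order of animals. It was 24.0-fold lower, again without overlap and with the same 2 NM-R spleens highest (log2 fold change -4.62 ± 0.23, limma adjusted p = 6.18e-08).

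BCMA, the receptor typical of plasma cells, differed less. Tnfrsf17 had 117, 101 and 95.4 normalized counts in mice, 16.4, 61.6 and 19.0 in ssNM-Rs and 28.2, 49.4 and 33.9 in lsNM-Rs. All NM-R spleens lay below the mice, and ssNM-R 3 was the nearest to them. The mean was 3.01-fold lower (log2 fold change -1.71 ± 0.39, limma adjusted p = 0.00231). The same ssNM-R 3 had the highest sum of the 6 plasma cell markers in the table among NM-Rs (16128, against 5499 to 12583 in the other NM-Rs and 32158 to 38067 in mice).

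The ligands of these receptors went in opposite directions. Tnfsf13b, made mainly by myeloid and stromal cells, had 172, 154 and 136 normalized counts in mice, 12.3, 12.0 and 9.48 in ssNM-Rs and 28.2, 17.6 and 29.5 in lsNM-Rs. Every NM-R spleen was below every mouse, and every ssNM-R was below every lsNM-R. The NM-R mean was 8.47-fold lower than that of mice (log2 fold change -3.13 ± 0.23, limma adjusted p = 6.89e-07). Tnfsf13 had 73.3, 75.0 and 58.7 in mice, 122, 116 and 156 in ssNM-Rs and 105, 106 and 131 in lsNM-Rs, with no overlap between the species. NM-Rs had a 1.78-fold higher mean (log2 fold change 0.81 ± 0.17, limma adjusted p = 0.00126). In mm9 this gene overlaps another annotated coding gene on the same strand, so that its count in mice is uncertain. The B cell marker sum was lower beside all of these values. That of the 9 macrophage markers in the table, of 10 listed, overlapped between the species (44138 to 54401 in mice and 47397 to 70711 in NM-Rs). Of these markers 3 were called higher, 5 lower and 1 not. The part of either list in these values was not tested.

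**Figure D2:**
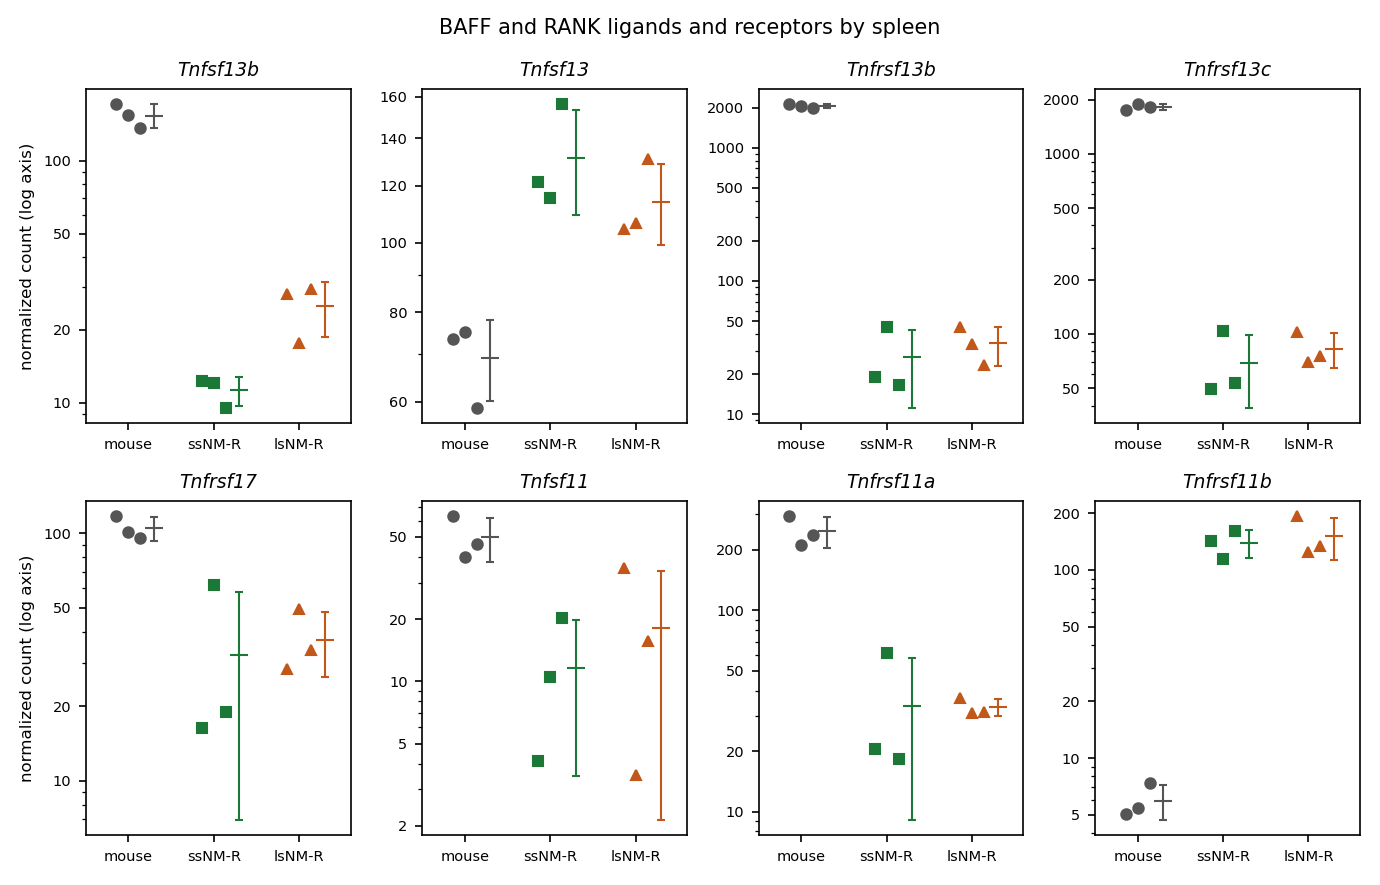
Normalized counts (y axis, log scale, 1 panel per gene with its own range) of the BAFF and RANK ligands and receptors in each spleen of mice, ssNM-Rs and lsNM-Rs (points), with the mean and SD of each group (n = 3) beside them. Both NM-R cohorts lie below mice in all panels but Tnfsf13 and Tnfrsf11b, where they lie above.

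RANK ligand (Tnfsf11) and RANK (Tnfrsf11a) were lower, and their decoy receptor osteoprotegerin (Tnfrsf11b) was higher. RANK ligand acts on osteoclast precursors and on the organisers of lymphoid tissue, and osteoprotegerin captures it before it meets RANK. Tnfrsf11a had 294, 209.8 and 237 normalized counts in mice, 20.5, 61.6 and 18.3 in ssNM-Rs and 36.7, 31.0 and 31.4 in lsNM-Rs, a 7.43-fold lower mean without overlap (log2 fold change -2.95 ± 0.35, limma adjusted p = 2.41e-05). Tnfsf11 had 63.2, 40.2 and 46.1 in mice, 4.1, 10.5 and 20.2 in ssNM-Rs and 35.3, 3.53 and 15.7 in lsNM-Rs. Here the NM-Rs were widely spread, with lsNM-R 1 nearest to the mice and lsNM-R 4 and ssNM-R 2 lowest. The mean was 3.35-fold lower (log2 fold change -2.03 ± 0.63, limma adjusted p = 0.0137), and the call was lost without mouse 1 (adjusted p = 0.0594). Tnfrsf11b (chr15:54082174-54110039, minus strand) had 5.02, 5.43 and 7.34 in mice, 142, 114 and 161 in ssNM-Rs and 193, 125 and 134 in lsNM-Rs. It was 24.4-fold higher in NM-Rs with a wide gap between the species (log2 fold change 4.39 ± 0.22, limma adjusted p = 6.16e-08). The lowest mouse library held 5 reads of Tnfrsf11b, so the size of this fold is uncertain.

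TNF itself, the founding cytokine of the family, did not pass the threshold. Tnf had 145, 119.6 and 119.5 normalized counts in mice, 88.9, 143 and 124 in ssNM-Rs and 70.6, 102 and 53.9 in lsNM-Rs. The ssNM-Rs overlapped the mice, while all 3 lsNM-Rs lay below them. The log2 fold change of the mean of both cohorts was -0.47 ± 0.23 (limma adjusted p = 0.0832, with a 95% interval of -0.98 to 0.04), and it became a call without lsNM-R 4 (adjusted p = 0.0257). Against mice it was -0.13 in ssNM-Rs (limma adjusted p = 0.655) and -0.80 in lsNM-Rs (limma adjusted p = 0.0186).

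Both TNF receptors were lower in the mean of both cohorts. TNF receptor 2 (Tnfrsf1b), found mainly on lymphocytes and myeloid cells, had 2446, 2302 and 2171 normalized counts in mice, 526, 748 and 1006 in ssNM-Rs and 794, 606 and 982 in lsNM-Rs. The species did not overlap, and NM-Rs had a 2.97-fold lower mean (log2 fold change -1.61 ± 0.20, limma adjusted p = 3.84e-05). TNF receptor 1 (Tnfrsf1a), the death domain receptor of most cells, had 1529, 1454 and 1317 in mice, 841, 1070.4 and 1569.8 in ssNM-Rs and 822, 872 and 1008 in lsNM-Rs. ssNM-R 6 lay above all mice and the other 5 NM-Rs below them. The log2 fold change of Tnfrsf1a was -0.51 ± 0.17 (limma adjusted p = 0.0191), and the call was lost without mouse 1 (adjusted p = 0.0734) or without mouse 2 (adjusted p = 0.0601). Against mice it was -0.35 in ssNM-Rs (limma adjusted p = 0.131) and -0.67 in lsNM-Rs (limma adjusted p = 0.0108).

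Other receptors and ligands were also lower. CD137 (Tnfrsf9), a receptor of activated T cells, had 117, 129 and 117 normalized counts in mice, 0, 12.0 and 0.632 in ssNM-Rs and 1.41, 1.41 and 4.39 in lsNM-Rs. In 4 of the 6 NM-Rs the value was under the level of 3 reads, ssNM-R 3 was the highest, and the mean was 36.7-fold lower (log2 fold change -5.37 ± 0.70, limma adjusted p = 5.54e-05). OX40 (Tnfrsf4) had 218, 187 and 185 in mice, 30.1, 37.5 and 25.3 in ssNM-Rs and 21.2, 20.4 and 37.0 in lsNM-Rs, a 6.87-fold lower mean without overlap (log2 fold change -2.77 ± 0.23, limma adjusted p = 2.1e-06). The ligands Tnfsf15 (TL1A) and Tnfsf18 (GITR ligand) were scarce even in mice, at 33.1, 29.3 and 37.8 and at 32.1, 16.3 and 12.6, and ranged from 0 to 6.01 and from 0 to 3.16 in NM-Rs, near the level of 3 reads. Both were called lower (limma adjusted p = 0.000156 and 0.000441). Tnfsf14 (LIGHT), a ligand of the lymphotoxin beta receptor, ranged from 149.5 to 197 in mice and from 53.3 to 97.5 in NM-Rs and was 2.07-fold lower (limma adjusted p = 0.00119). Tnfrsf25 (DR3), the receptor of TL1A, ranged from 179 to 192 in mice and from 38.8 to 144 in NM-Rs and was 2.04-fold lower (limma adjusted p = 0.0165). The sums of the T cell and NK cell markers were lower beside these genes, the latter at 1658 to 2070 in mice and 138 to 263 in NM-Rs for 4 of 7 listed genes, and their part was not tested.

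A smaller set of ligands and receptors was higher. TRAIL (Tnfsf10), a ligand that can trigger cell death through its own receptors, had 292, 330.4 and 246 normalized counts in mice, 1454, 1551 and 852 in ssNM-Rs and 2328, 1321 and 1351 in lsNM-Rs. All NM-Rs exceeded all mice, ssNM-R 6 least and lsNM-R 1 most, and the mean was 5.1-fold higher (log2 fold change 2.29 ± 0.23, limma adjusted p = 8.49e-06). CD30 ligand (Tnfsf8) had 199.7, 255 and 262 in mice, 784, 928 and 328 in ssNM-Rs and 756, 755 and 1004 in lsNM-Rs. ssNM-R 6 lay just above the mice and far below the other NM-Rs, and the mean was 3.17-fold higher (log2 fold change 1.59 ± 0.29, limma adjusted p = 0.000538).

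Further receptors were among the members that rose. TROY (Tnfrsf19), a receptor known from skin and brain, had 33.1, 31.5 and 33.6 normalized counts in mice, 193, 186 and 209 in ssNM-Rs and 339, 189 and 309.8 in lsNM-Rs. It was 7.26-fold higher without overlap (log2 fold change 2.78 ± 0.19, limma adjusted p = 4.68e-07). Fn14 (Tnfrsf12a), the receptor of TWEAK in injured tissue, had 33.1, 35.9 and 51.4 in mice, 88.9, 138 and 137 in ssNM-Rs and 116, 143 and 107 in lsNM-Rs, 3.03-fold higher and without overlap (log2 fold change 1.58 ± 0.22, limma adjusted p = 7.63e-05). The lymphotoxin beta receptor (Ltbr), which shapes the stroma of lymphoid organs, had 521, 511 and 500.2 in mice, 1009, 1096 and 1446 in ssNM-Rs and 867, 1160.0 and 1262 in lsNM-Rs. It was 2.23-fold higher, again with all NM-Rs above all mice (log2 fold change 1.14 ± 0.14, limma adjusted p = 4.03e-05). Tnfrsf21 (DR6) ranged from 1000.4 to 1062 in mice and from 795 to 1565 in NM-Rs, with a log2 fold change of 0.01 and a 95% interval of -0.45 to 0.46 (limma adjusted p = 0.977). The summed level of the 6 stromal markers in the table, of 7 listed, was 11122 to 13077 in mice and 14527 to 28429 in NM-Rs, with 3 called higher, 2 lower and 1 not, and its part in these receptors was not tested.

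**Figure D3:**
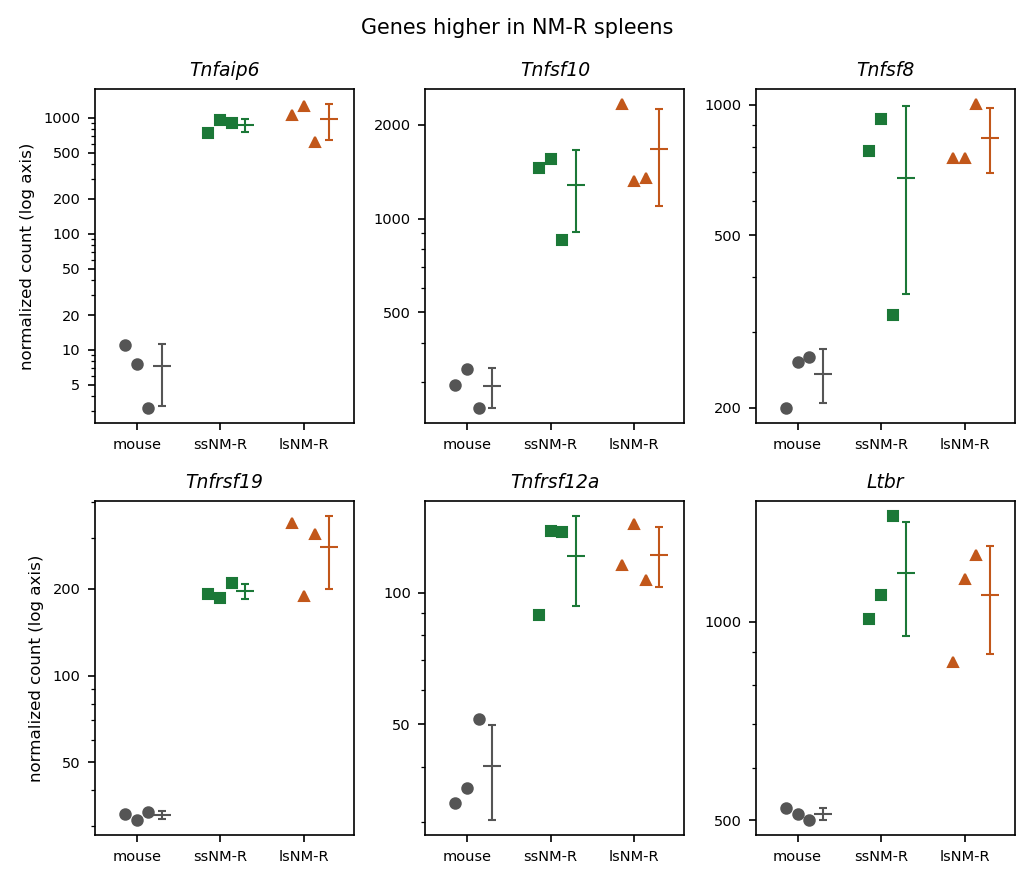
Normalized counts (y axis, log scale, 1 panel per gene with its own range) of 6 members that were higher in NM-Rs, in each spleen of mice, ssNM-Rs and lsNM-Rs (points), with the mean and SD of each group (n = 3). Tnfaip6 ranges from 3.15 to 11.0 in mice and from 615 to 1266 in NM-Rs, and ssNM-R 6 is the NM-R nearest to the mice for Tnfsf10 and Tnfsf8.

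Among the 6 members with Tnfaip symbols, 4 were higher and 2 lower, where 39.7% of all genes were higher and 38.8% lower. Tnfaip6 (chr2:51893529-51912206, plus strand), a secreted protein that binds hyaluronan and remodels its coat, had 11.0, 7.61 and 3.15 normalized counts in mice, 744, 962 and 907 in ssNM-Rs and 1056, 1266 and 615 in lsNM-Rs. It was 127-fold higher without overlap and had the largest log2 fold change of the members (log2 fold change 6.90 ± 0.33, limma adjusted p = 4.77e-08). The lowest mouse library held 3 reads of Tnfaip6, so the size of this fold is uncertain. Tnfaip8l3, a carrier of phosphoinositides, was at 1 read in mouse 1 and at 0 in the other mice, with 39.7, 33.0 and 34.1 normalized counts in ssNM-Rs and 28.2, 34.6 and 28.8 in lsNM-Rs. Against a floor of 3 reads per mouse library it was at least 10.5-fold higher (limma adjusted p = 2.39e-07). Tnfaip1 rose 1.32-fold without overlap (limma adjusted p = 0.00139), and Tnfaip8l1 rose 1.27-fold with overlap (limma adjusted p = 0.0263). The call of Tnfaip8l1 was lost without mouse 2 (adjusted p = 0.0886) or mouse 3 (adjusted p = 0.0608). Its log2 fold change against mice was 0.52 in ssNM-Rs (limma adjusted p = 0.00598) and 0.14 in lsNM-Rs (limma adjusted p = 0.365). Lower were Tnfaip8l2 (TIPE2), a brake on immune receptors, at 2.84-fold, and Tnfaip2 (M-Sec), which drives membrane protrusions, at 2.21-fold (limma adjusted p = 6.13e-05 and 0.000173).

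Of the 10 genes with TRAF names, 8 were lower and 2 higher, where 38.8% of all genes were lower and 39.7% higher. TRAF proteins are the adaptors that bind the tails of the receptors, and several of them are ubiquitin ligases. Traf3ip2 (Act1), which is the adaptor of the receptors of interleukin-17, had 602, 534 and 619 normalized counts in mice, 20.5, 19.5 and 10.1 in ssNM-Rs and 22.6, 16.2 and 19.4 in lsNM-Rs. It was 32.4-fold lower (log2 fold change -4.98 ± 0.24, limma adjusted p = 5.03e-08). Traf1, a TRAF without ligase domain that is found in activated lymphocytes, had 1844, 1667 and 1742 in mice, 98.5, 131 and 202 in ssNM-Rs and 155, 143 and 195 in lsNM-Rs, 11.4-fold lower (log2 fold change -3.54 ± 0.20, limma adjusted p = 1.39e-07). Traf6, the ligase that serves Toll-like receptors, CD40 and RANK, had 1057, 962 and 921 in mice, 161, 161 and 127 in ssNM-Rs and 230.2, 168 and 150.5 in lsNM-Rs, 5.89-fold lower (log2 fold change -2.57 ± 0.15, limma adjusted p = 1.71e-07). In none of these 3 genes did the species overlap.

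The adaptors of the alternative pathway moved by unequal amounts. Traf3, which holds NIK at a low level, had 2014, 1773 and 1909.7 normalized counts in mice, 488, 676 and 727 in ssNM-Rs and 904, 522 and 568 in lsNM-Rs, 2.93-fold lower (log2 fold change -1.58 ± 0.18, limma adjusted p = 2.23e-05). Traf2, its partner at the receptors, had 829.8, 865 and 885 in mice, 692, 650.1 and 612 in ssNM-Rs and 648, 589.5 and 531 in lsNM-Rs, 1.39-fold lower (log2 fold change -0.48 ± 0.09, limma adjusted p = 0.000678). All NM-Rs lay below all mice for both. The other lower members were Traf4, Traf3ip3 and Traf7, by 3.11-fold, 2.8-fold and 1.66-fold. Higher were Traf3ip1, a protein of the cilium, by 1.37-fold, and Traf5 by 1.2-fold (limma adjusted p = 0.00558 and 0.03), the latter with overlap between the species.

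Malt1 and Bcl10 were both lower. Bcl10 is an adaptor between the antigen receptors of B and T cells and NF-kB, and Malt1 is the protease it binds. Malt1 had 3077, 2938 and 2740.2 normalized counts in mice, 79.3, 105 and 84.0 in ssNM-Rs and 141, 140.3 and 139 in lsNM-Rs. The 3 groups did not overlap with each other, and the mean of the NM-Rs was 25.4-fold below that of mice (log2 fold change -4.70 ± 0.11, limma adjusted p = 6.53e-10). Bcl10 had 839.9, 952 and 942 in mice, 298, 245 and 317 in ssNM-Rs and 243, 347 and 409 in lsNM-Rs, 2.94-fold lower (log2 fold change -1.58 ± 0.16, limma adjusted p = 8.75e-06).

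Among death domain adaptors and the caspase-inhibitor family, 4 of 6 members were lower and 2 higher. Of all genes, 38.8% were lower and 39.7% higher. Birc3 (cIAP2), a ubiquitin ligase at the TNF receptors that is itself induced by NF-kB, had 3233, 2939 and 2930.0 normalized counts in mice, 416, 471 and 1038 in ssNM-Rs and 842, 483 and 715 in lsNM-Rs. It was 4.59-fold lower without overlap (log2 fold change -2.28 ± 0.27, limma adjusted p = 2.96e-05). Birc6, a giant ubiquitin ligase that blocks caspases, was 3.3-fold lower, Fadd, which joins death receptors to caspase-8, 2.64-fold, and Tradd, the adaptor of TNF receptor 1, 1.57-fold (limma adjusted p = 4.51e-06, 2.78e-06 and 0.000443). By contrast the kinase Ripk1, which decides between survival and death at TNF receptor 1, had 959, 909 and 774 in mice, 1153, 1224 and 1231 in ssNM-Rs and 1549, 1152 and 1273 in lsNM-Rs, 1.43-fold higher without overlap (limma adjusted p = 0.00151). Survivin (Birc5), which is needed for cell division, had 398, 809 and 1244 in mice, 1545, 1356 and 1249 in ssNM-Rs and 1165, 1432 and 1107 in lsNM-Rs. Mouse 1 was low, mouse 3 overlapped the NM-Rs, and the log2 fold change of 0.82 ± 0.29 (limma adjusted p = 0.0236) fell to 0.37 without mouse 1 (adjusted p = 0.0843). The sum of 2 proliferation markers, of 5 listed, was also lowest in mouse 1, at 2568 against 4309 and 5333 in the other mice and 10275 to 13199 in NM-Rs, and its part in Birc5 was not tested.

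Of the 5 members grouped with the kinases by symbol, which include Ikbkap, 3 were lower and 1 higher. Of all genes, 38.8% were lower and 39.7% higher. IKK beta (Ikbkb), which marks IkB proteins for degradation, had 4043, 3687 and 3638 normalized counts in mice, 1053, 1162 and 982 in ssNM-Rs and 1182, 1047 and 991 in lsNM-Rs. The NM-Rs were close to each other and all below the mice, and the mean was 3.54-fold lower (log2 fold change -1.83 ± 0.09, limma adjusted p = 5.7e-08). NIK (Map3k14) had 1226, 1159.8 and 1133 in mice, 513, 616 and 583 in ssNM-Rs and 686, 469 and 503 in lsNM-Rs, 2.09-fold lower without overlap (log2 fold change -1.07 ± 0.13, limma adjusted p = 2.38e-05). Map3k8 (Tpl2), which is held by Nfkb1 until it is freed to activate the ERK pathway, was 2.18-fold lower (limma adjusted p = 0.00435). The related kinase Ikbke ranged from 1316 to 1432 in mice and from 1102 to 1596 in NM-Rs, with a log2 fold change of -0.06 ± 0.11 and a 95% interval of -0.31 to 0.20 (limma adjusted p = 0.645). Ikbkap, a subunit of the Elongator complex in spite of its name, ranged from 800.0 to 873 in mice and from 1204 to 1449 in NM-Rs and was 1.6-fold higher (log2 fold change 0.68 ± 0.09, limma adjusted p = 5.26e-05). Ikbkg, the regulatory subunit of the IkB kinases, is not listed under this symbol.

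All 5 NF-kB subunits were lower, and all NM-R spleens lay below all mice for each of them. Of all genes, 38.8% were lower, and in 36.2% every NM-R lay below every mouse. Rel (c-Rel), the subunit most tied to lymphocytes, had 890.0, 867 and 673 normalized counts in mice, 145, 138 and 80.9 in ssNM-Rs and 201, 184 and 202 in lsNM-Rs. It was 5.11-fold lower (log2 fold change -2.40 ± 0.19, limma adjusted p = 1.31e-06), the most of the 5. Nfkb1, the precursor of p50 (chr3:135247619-135354511, minus strand), had 4838, 4422 and 4607 in mice, 926, 1089.9 and 1319.5 in ssNM-Rs and 1196, 815 and 884 in lsNM-Rs, 4.45-fold lower (log2 fold change -2.17 ± 0.14, limma adjusted p = 3.42e-07). Relb, the partner of p52 in the alternative pathway, had 1552, 1490.3 and 1485 in mice, 269, 408 and 622 in ssNM-Rs and 613, 212 and 344 in lsNM-Rs, 3.67-fold lower (log2 fold change -1.98 ± 0.32, limma adjusted p = 0.000251). Rela (p65), found in nearly all cells, had 1540.3, 1612 and 1728 in mice, 709.7, 748 and 891 in ssNM-Rs and 833, 830.0 and 915 in lsNM-Rs, 1.98-fold lower (log2 fold change -0.99 ± 0.09, limma adjusted p = 4.75e-06). Nfkb2, the precursor of p52, had 2418, 2597 and 2589 in mice, 1017, 1379.7 and 1965 in ssNM-Rs and 2023, 872 and 1416 in lsNM-Rs, 1.75-fold lower (log2 fold change -0.88 ± 0.26, limma adjusted p = 0.0101).

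Per kilobase of annotated exon in mm9, the level in mice was 964 ± 43.4 normalized counts for Nfkb1, 771 ± 30.7 for Nfkb2, 599 ± 34.9 for Rela, 388 ± 9.62 for Relb and 289.5 ± 42.6 for Rel (SD, n = 3). Neighbours in this order of levels were further apart than their SDs. These SDs cover the spread between the mice and not the choice of exon length, so they do not measure how certain the order is. Nfkb2 also overlaps a coding gene on the opposite strand. No such scale was made for NM-Rs, since their gene lengths were not used here.

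The IkB proteins, which hold NF-kB in the cytoplasm or act on it in the nucleus, were lower in 5 of 6 members. Of all genes, 38.8% were lower. Nfkbia (IkB alpha), the inhibitor that NF-kB itself induces most quickly, had 2609, 3040.3 and 3134 normalized counts in mice, 994, 1059.9 and 2158 in ssNM-Rs and 1628, 891 and 2015 in lsNM-Rs. The species did not overlap, and the mean was 2.01-fold lower (log2 fold change -1.09 ± 0.29, limma adjusted p = 0.00609). Nfkbie (IkB epsilon) had 1465, 1454 and 1338 in mice, 416, 518 and 682 in ssNM-Rs and 677, 377 and 483 in lsNM-Rs, 2.7-fold lower (log2 fold change -1.47 ± 0.19, limma adjusted p = 5.55e-05). The nuclear proteins Nfkbid and Nfkbiz were 3.34-fold and 1.25-fold lower, and Nfkbil1 2.08-fold (limma adjusted p = 2.98e-06, 0.0183 and 0.000834). Nfkbib (IkB beta) ranged from 534 to 594 in mice and from 388 to 565 in NM-Rs, with a log2 fold change of -0.17 ± 0.11 and a 95% interval of -0.41 to 0.07 (limma adjusted p = 0.164). The promoters shown above were printed because they held a match, and a relation between matches and the size of the differences was not tested.

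**Figure D4:**
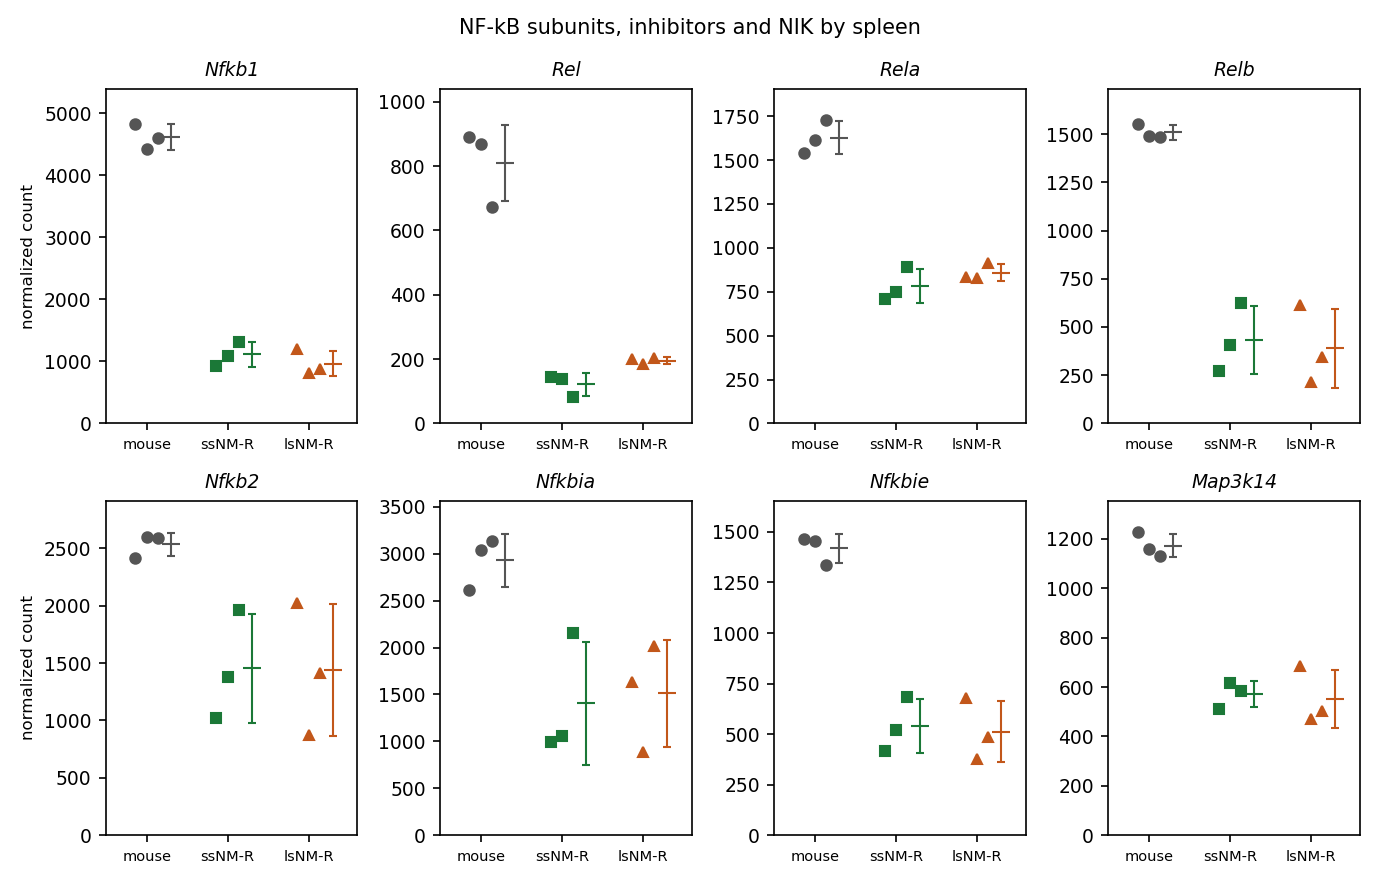
Normalized counts (y axis, linear from 0, 1 panel per gene with its own range) of the 5 NF-kB subunits, the inhibitors Nfkbia and Nfkbie and the kinase NIK (Map3k14) in each spleen of mice, ssNM-Rs and lsNM-Rs (points), with the mean and SD of each group (n = 3). All NM-R points lie below all mouse points, and ssNM-R 6 and lsNM-R 1 are the highest NM-Rs for Relb, Nfkb2 and Nfkbie.

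Within NM-Rs the spread of some of these genes was large and did not follow the cohorts. The coefficient of variation of Relb was 42.0% over the 6 NM-Rs and 2.48% over the 3 mice, and that of Nfkb2 was 32.7% and 3.98%. Relb and Nfkbie had the same order of NM-R spleens from the highest, ssNM-R 6, lsNM-R 1, ssNM-R 3, lsNM-R 5, ssNM-R 2 and lsNM-R 4, and Nfkb2 differed from it by neighbours only. Of the 43 lower members, 17 had their highest NM-R value in lsNM-R 1 and 11 in ssNM-R 6, while 15 had their lowest in ssNM-R 2 and 11 in ssNM-R 6. The shares over all genes were not counted, so these numbers cannot be read as particular to the members. The same lsNM-R 1 had the highest sums of B cell markers (7812) and T cell markers (9395) among NM-Rs, and ssNM-R 2 the lowest (3207 and 4492), which was not tested against these genes.

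Genes of the same pathways that the rule leaves out were counted in the same way. Of 62 listed genes 43 were in the table, and 26 of them were lower, 7 higher and 10 did not pass the threshold, where 38.8% of all genes were lower and 39.7% higher. Among the lowest were Nlrc5, which drives MHC class I genes, at 16.9-fold, Tnip2 at 5.13-fold, Ticam1 (TRIF), an adaptor of Toll-like receptors, at 4.09-fold, and Sigirr, a brake on them, at 3.48-fold (limma adjusted p from 1.65e-07 for Ticam1 to 1.8e-05 for Sigirr). The highest was Optn (optineurin), which binds ubiquitin chains and serves autophagy, with a mean of 555 ± 74.9 (SD) in the 3 mice and of 4578 ± 775 in the 6 NM-Rs, or 8.25-fold (limma adjusted p = 5.24e-08). It was followed by Ngfr at 2.41-fold, Nkrf at 2.05-fold, the death receptor Fas at 1.72-fold and Btrc, the ligase that removes phosphorylated IkB, at 1.61-fold (limma adjusted p from 8.09e-06 for Nkrf to 0.00616 for Btrc). All 6 receptor-proximal and cell death genes of the list were lower, as were 5 of 8 superfamily genes with other names (2 higher) and 7 of 11 ubiquitin and scaffold genes (1 higher). Of 9 regulators of NF-kB 4 were lower, 2 higher and 3 did not pass, and the same counts held for 9 adaptors of Toll-like and interleukin-1 receptors.

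Between lsNM-Rs and ssNM-Rs no member passed the threshold in limma, and 0.0% of all genes did. At an unadjusted limma p under 0.05 there were 6 members, against 8.79% of all genes. DESeq2 on the recovered reads called 1 member, against 0.44% of all genes. With edgeR on these reads 0 members and 0 of all genes were called. EdgeR had 8 members at an unadjusted p under 0.05, for which the share over all genes was not counted. The cohorts did not overlap in 5 members, of which 3 were higher and 2 lower in lsNM-Rs, against 13.1% of all genes. The median half-width of the 95% interval, which is not adjusted for the number of genes, was 0.52 on the log2 scale. Larger differences did not pass the threshold either, such as 1.06 for Tnfsf13b (limma adjusted p = 0.442). With 3 spleens each, detection of differences between the cohorts was limited.

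The 5 members with the smallest p between the cohorts were Malt1, Tnfsf13b, Rel, Tnfaip8l1 and Tnf. Malt1 was higher in lsNM-Rs by 0.65 ± 0.13 on the log2 scale (limma adjusted p = 0.429, DESeq2 adjusted p = 0.0133), and it was the member that DESeq2 called. With DESeq2 on the NM-R libraries alone its adjusted p was 0.546, and over all alternatives it ran from 0.00673 to 0.731. Tnfsf13b differed by 1.06 ± 0.26 and Rel by 0.73 ± 0.22, both with the values of all lsNM-Rs above those of all ssNM-Rs (limma adjusted p = 0.442 for each). Tnfaip8l1 had a log2 difference of -0.37 ± 0.14, with 223, 219 and 229 normalized counts in ssNM-Rs and 172, 152 and 195 in lsNM-Rs (limma adjusted p = 0.503). Of 12 sums of marker lists, that of the granulocytes alone separated the cohorts, at 24829 to 32841 normalized counts in ssNM-Rs and 33921 to 43204 in lsNM-Rs. In 4 of its 7 genes all lsNM-Rs lay above all ssNM-Rs, and in 0 all lay below. The log2 differences of the 7 genes ran from -0.93 to 1.34, with Mpo lower in lsNM-Rs (-0.29). Of the 7 genes DESeq2 called 2 and limma 0, and 5 had an unadjusted limma p under 0.05. The part of this list in the differences of these members was not tested. For Tnf the log2 difference was -0.67 ± 0.26, with overlap (limma adjusted p = 0.534).

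Sequencing depth ran across the cohorts. Of the NM-R libraries, ssNM-R 2, ssNM-R 3 and lsNM-R 1 had 8985705 or fewer reads recovered from the table. The other NM-R libraries, ssNM-R 6, lsNM-R 4 and lsNM-R 5, had 16883689 or more. With this depth class as a term, the log2 difference between lsNM-Rs and ssNM-Rs was 0.67 for Malt1, 1.17 for Tnfsf13b and 0.87 for Rel in limma (adjusted p = 0.174 for Malt1 and 0.191 for the others). DESeq2 with the same term called Malt1, Rel and Tnfsf10, among 245 of all 12946 genes. Without the term it called 57 of all genes. The cohorts could not be compared inside one depth class, since each class held 1 spleen of one of the cohorts.

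**Figure D5:**
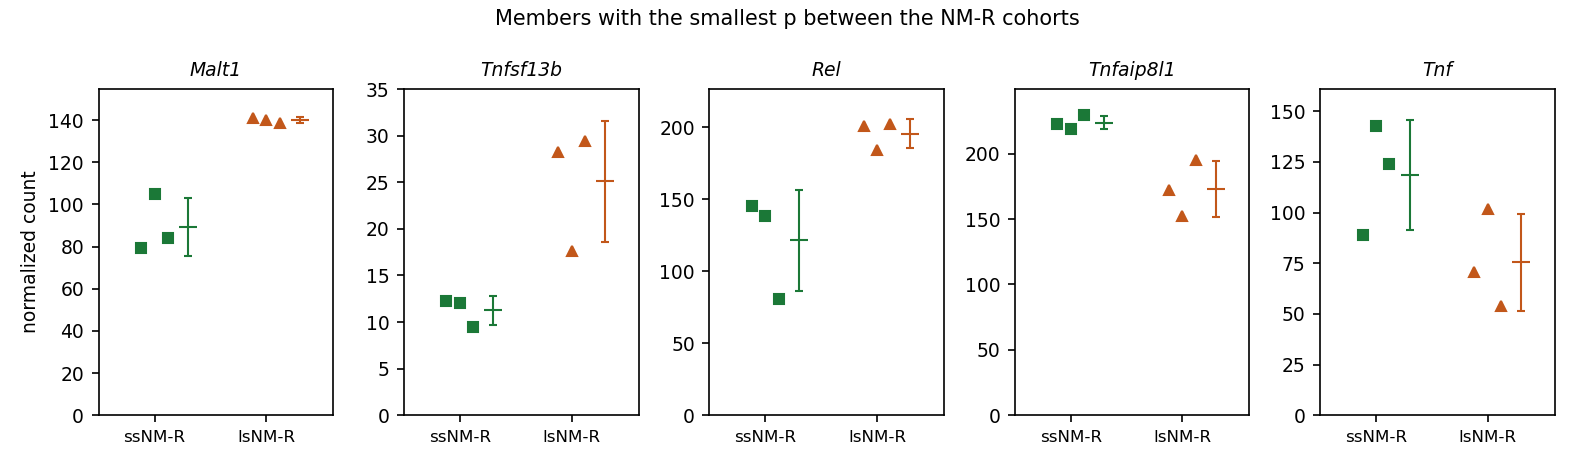
Normalized counts (y axis, linear from 0, 1 panel per gene with its own range) of the 5 members with the smallest p between the NM-R cohorts, in each spleen of ssNM-Rs and lsNM-Rs (points), with the mean and SD of each cohort (n = 3). The cohorts do not overlap for Malt1, Tnfsf13b, Rel and Tnfaip8l1, and they overlap for Tnf.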

How the data were processed

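Spleen RNA of 3 mice and 6 NM-Rs was sequenced, with 1 library per animal and groups taken from the organism and spleen size in the labels. The labels and the study's methods differ on the instrument, the library kit and the maker of the RNA kit. According to the methods, the authors aligned reads with STAR 2.5.3a to mm9 or to the NM-R genome, counted them per gene with HTSeq 0.10.0, named NM-R genes after their mouse homologues and scaled the counts with the size factors of DESeq2. The deposited table therefore holds a signal value, the normalized count, which is not divided by gene length. Whether the counting used strand is not given in the sources used here.

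Values of all 9 spleens were whole multiples of 1 step per library (100% within 0.001), which returned the reads. Nothing says that animals of a group came from separate litters or colonies, so p-values measure only the spread between these animals. For the tests, limma 3.58.1 in R 4.3.3 was run on log2 values after adding 1 to each normalized count, with 1 mean per group, a trended variance and 2-sided tests, with Benjamini-Hochberg adjustment over 12946 genes, a threshold of 0.05 and no filter on low values, so that all 63 members were tested. DESeq2 1.42.0 (filtering set for the same threshold) and edgeR 4.0.16 on the recovered reads were alternatives. Scripts were tested on simulated data. Folds are ratios of group means. A gene was taken to be at the floor at 3 reads or fewer in each library of a group. All 63 members matched 1 gene of the mm9 annotation.

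Genes named are a core of 25 symbols (Ltb, Ikbkg, Tnfaip3 and Cyld are not listed), the 10 highest and 10 lowest members with a mean of at least 50 in the higher species, the 5 with the smallest p between cohorts, examples of each role, and the 5 highest and 5 lowest listed pathway genes, of which 1 is not reported here. Other members were named after their values were seen. The members and lists were chosen with earlier results of these data known.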

Additional observations from a re-analysis of the deposited data

Results flagged for a closer look

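Each member was examined for a single spleen far from the others among the 6 NM-Rs, by the gap to the nearest other spleen over the whole range. This marked 5 of 63 members, by a cut-off meant to mark about 1 in 20 groups by chance. The share over all genes was not counted, so the number cannot be read as high or low. Birc6 was at 1140.0 normalized counts in ssNM-R 6, below 1667 to 1983 in the other NM-Rs. Tnfsf8 was at 328 in the same spleen, below 755 to 1004 in the others. Tnfrsf1a was at 1569.7 there as well, above 822 to 1070. Ripk1 was at 1549 in lsNM-R 1, above 1152 to 1273 in the others. Tnfrsf9 was at 12.0 in ssNM-R 3, above 0 to 4.39 in the others, all of them few reads. No cause was tested.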

How the results depend on the processing

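The species counts kept their direction and stayed within 1.5 times the main count under all 20 alternatives that compare the species, and another 3 alternatives concern the cohorts alone. Leaving out 1 spleen gave 14 to 16 members higher and 40 to 44 lower in NM-Rs, 14 to 16 and 37 to 42 in ssNM-Rs, 12 to 14 and 39 to 45 in lsNM-Rs, 0 between the cohorts, and a median log2 fold change of -1.21 to -1.03. Between the cohorts, DESeq2 called 1 member (57 of all genes) and DESeq2 with the depth class 3 members (245 of all genes). Limma and edgeR called 0 members and 0 of all genes, and the cause was not tested. Rescaling to the same upper quartile moved the median of all genes to 0.10 and that of the members to -1.05. The sample numbers did not pair the spleens (correlations of deviations from -0.0045 to 0.010), and with a replicate block 14 members were higher and 42 lower in NM-Rs, and 34 were lower in lsNM-Rs. Of 46 named results 41 kept their call and direction under every alternative that gave them a value. The other 5 kept their direction, and Birc5, Tnf, Tnfsf11, Tnfrsf1a and Tnfaip8l1 changed their call. Besides the spleens named in the report, this was so for Tnfrsf1a with the upper quartile scaling (adjusted p = 0.0556 in limma), and for Tnfaip8l1 with the same total (0.0643), the replicate block (0.0708) or the compared groups alone (0.0692). Over all settings and tools (limma, DESeq2 and edgeR) the adjusted p ran from 0.0257 to 0.242 for Tnf, 0.000585 to 0.0734 for Tnfrsf1a, 0.00396 to 0.0594 for Tnfsf11, 0.00202 to 0.0843 for Birc5 and 0.00868 to 0.0886 for Tnfaip8l1. Reads limit Tnfrsf9, Tnfsf15 and Tnfsf18, each with 0 reads in at least 1 NM-R, and 3 spleens per group limit the comparison of the cohorts. Few reads also limit Tnfsf11 and Tnfsf13b in NM-Rs, with 3 and 8 reads in the lowest library. In mice they limit Tnfaip6 and Tnfrsf11b, with 3 and 5 reads in the lowest library.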
